A study of Mus musculus with 10 samples.

Results

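Mbp, Mog, Mag, Mobp, Cnp, Cldn11, Mal, Opalin and Ermn encode 9 proteins that build or line the myelin sheath of the central nervous system. They were taken by Entrez Gene identifier from the count files of mouse spinal cord, which list 26301 identifiers, and all 9 were present in every library and passed the filter on low counts. The mice were of the inbred C57BL/6 strain, 8 weeks old in 3 male and 3 female libraries and 4 weeks old in 2 male and 2 female libraries. The labels name no mutation or treatment in any group, the material was total RNA of the spinal cord taken up in Trizol, and the design text names the ages as the comparison. Whether each numbered library is a different mouse is not stated in the labels, and the p-values below rest on the spread among libraries, part of which may be technical.

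Myelin is the stack of membrane that oligodendrocytes wrap around axons, which lets nerve impulses travel fast and supports the axon beneath. In the compacted part the cytoplasmic faces of the membrane are held together by Mbp, whose RNA is carried out to the sheath before it is translated. Tight junction strands, adhesion proteins of the outer and inner surface and cytoskeletal proteins of the uncompacted channels complete the sheath, and the spinal cord, with its thick white matter, is rich in all of them. Much of the sheath is laid down in the weeks after birth.

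Library totals lay between 8453559 and 11594610 counts, and the lowest count of any of the 9 genes in a library was 789, for Opalin. Levels are given as CPM, a gene's counts scaled by TMM to the same total in each library. They are not corrected for transcript length, so they are compared between libraries and not between genes. Other tissues left transcripts in some libraries. The summed level of 12 skeletal muscle genes was 37.2 to 143 CPM at 8 weeks and 479.6 to 1872 CPM at 4 weeks, the summed level of 6 adrenal cortex genes was 92.1 and 123 CPM in the male 4-week libraries and at most 11.03 CPM in the other 8 libraries, and that of 6 lung genes was 815 and 92.1 CPM in male 8-week libraries 2 and 3 and at most 6.00 CPM in the others. No gene of these lists was at 0 in every library.

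At 8 weeks 8 of the 9 genes were lower than at 4 weeks, and none was higher. Mal fell the most, to 1076 ± 71.5 CPM at 8 weeks (SD, n = 6), against 2225 ± 144 CPM at 4 weeks (SD, n = 4), and Ermn was the gene whose difference did not pass, at 421 ± 37.1 CPM at 8 weeks and 472 ± 22.1 CPM at 4 weeks. In order of the 8-week mean as a percentage of the 4-week mean, Mal stood at 48.4%, Cldn11 at 54.8%, Mog at 59.5%, Cnp at 65.2%, Mobp at 68.1%, Mbp at 68.9%, Mag at 75.3%, Opalin at 77.0% and Ermn at 89.2%. The 9 genes together held 3.01 ± 0.133% of a library's counts at 8 weeks (SD, n = 6) and 4.43 ± 0.115% at 4 weeks (SD, n = 4). In bulk tissue, fewer oligodendrocytes and less of each RNA per oligodendrocyte cannot be told apart.

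The test was edgeR's quasi-likelihood F test over both sexes with Benjamini-Hochberg adjustment over all 15540 genes tested, called at an adjusted p under 0.05. It called 778 genes lower at 8 weeks, 5.01% of those tested, and 250 higher, 1.61%. The median log2 fold change of the 9 genes was −0.55, and that of all genes tested was 0.01. For 7 of the 9 genes every 8-week library lay below every 4-week library, a pattern that 4.84% of all genes tested showed, while the ages overlapped for Mobp and Ermn. The count of 8 was 7 without male 8-week libraries 2 and 3 and 8 without both male 4-week libraries. With a skeletal muscle score of each library in the model it was 2, namely Mal, at −0.98 (adjusted p = 0.00690), and Cldn11, at −0.72 (adjusted p = 0.0439), in the same edgeR test. That score lay between −2.29 and −0.58 in 8-week libraries and between 1.19 and 3.19 in 4-week libraries, so the ages did not overlap on it, and its part in the calls of the other genes cannot be told apart from age.

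**Figure D1:**
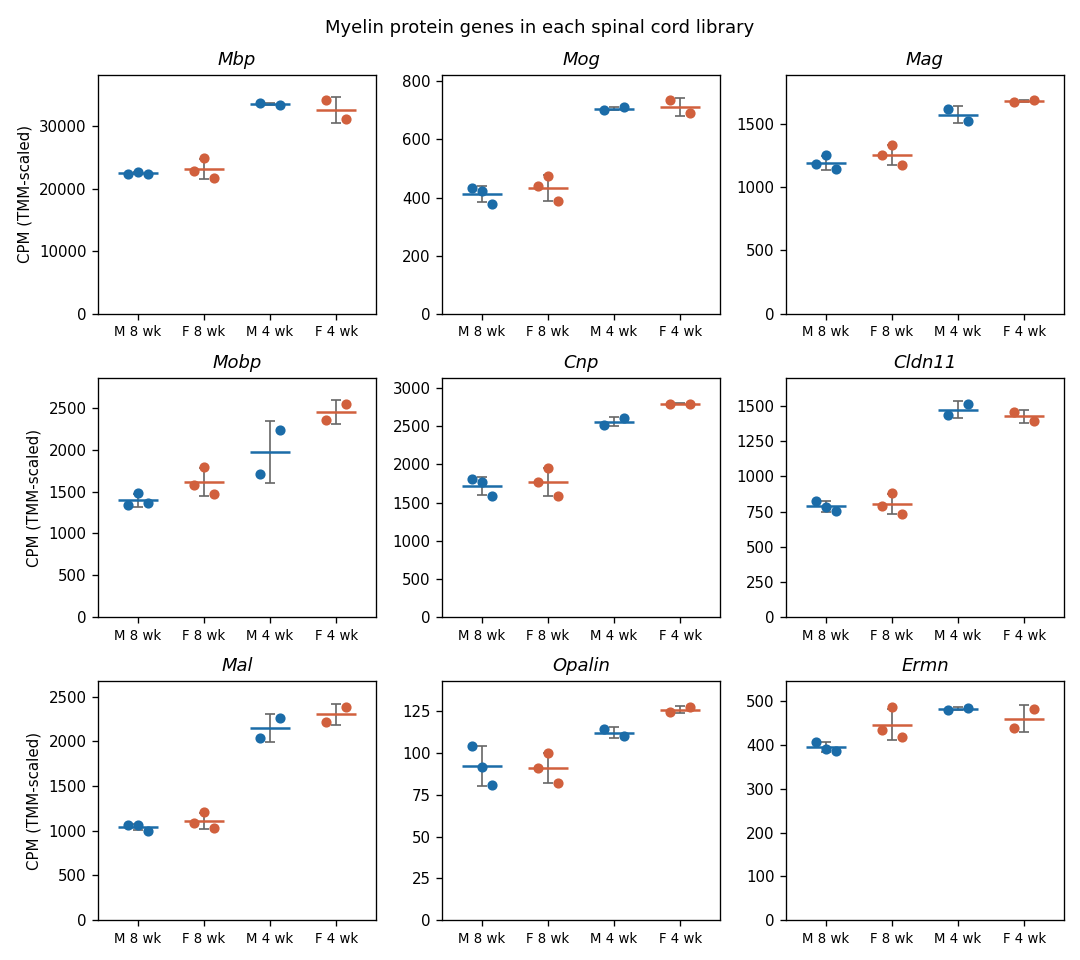
Level of each of the 9 myelin genes in CPM (TMM-scaled, linear axes) in every library, 8 weeks left of 4 weeks. Male libraries are in blue and female libraries in orange. Bars give the mean ± SD of each sex at each age (n = 3 per sex at 8 weeks, n = 2 per sex at 4 weeks). The ages are apart in 7 panels and overlap in those of Mobp and Ermn.

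Promoter sequences are shown to set the genes that fell the most beside those that hold matches to motifs of known myelin gene regulators. The windows run from 250 bases before to 50 bases after the annotated start, on the gene's own strand, from RefSeq on build GRCm38.p6, which is not the build of the counts. Of the 9 genes 8 had an entry, and Mbp is named only. Capitals mark matches to 2 motifs. The first is a form bound by Myrf, the factor that oligodendrocytes need to make and keep myelin, and is spelled CTGGCAC, with CTGGTAC as its other accepted spelling. The second is a form bound by Sox proteins such as Sox10 and is spelled AACAAAG, with AACAATG as its other accepted spelling. Both strands were searched, so a match on the opposite strand appears below as the reverse complement, and no match overlapped one to the other motif.
Mal, chr2:127656646-127656945, minus strand: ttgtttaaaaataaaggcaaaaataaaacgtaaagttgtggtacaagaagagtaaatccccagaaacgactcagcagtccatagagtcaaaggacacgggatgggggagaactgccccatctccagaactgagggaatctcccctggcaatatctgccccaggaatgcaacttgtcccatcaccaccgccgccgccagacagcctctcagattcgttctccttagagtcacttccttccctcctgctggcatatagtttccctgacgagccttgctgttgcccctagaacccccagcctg
Cldn11, chr3:31149670-31149969, plus strand: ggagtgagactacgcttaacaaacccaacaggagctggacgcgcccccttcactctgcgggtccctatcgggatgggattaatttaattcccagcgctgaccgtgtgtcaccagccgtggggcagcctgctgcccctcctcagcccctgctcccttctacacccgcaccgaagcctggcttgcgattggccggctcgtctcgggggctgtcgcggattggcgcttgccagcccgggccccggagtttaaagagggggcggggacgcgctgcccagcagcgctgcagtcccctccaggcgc
Mog, chr17:37023349-37023648, minus strand: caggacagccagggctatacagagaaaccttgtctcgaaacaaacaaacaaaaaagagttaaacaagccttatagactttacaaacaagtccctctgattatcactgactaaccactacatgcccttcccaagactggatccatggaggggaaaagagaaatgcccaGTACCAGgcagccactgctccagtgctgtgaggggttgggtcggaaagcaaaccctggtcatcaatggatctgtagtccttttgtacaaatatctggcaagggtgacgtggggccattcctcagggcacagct
Cnp, chr11:100574689-100574988, plus strand: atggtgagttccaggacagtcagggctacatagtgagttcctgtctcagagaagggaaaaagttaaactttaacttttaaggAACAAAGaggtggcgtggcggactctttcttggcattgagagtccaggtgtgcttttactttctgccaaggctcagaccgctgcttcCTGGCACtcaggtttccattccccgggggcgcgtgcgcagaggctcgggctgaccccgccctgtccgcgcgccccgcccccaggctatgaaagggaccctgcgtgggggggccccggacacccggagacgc
Mobp, chr9:120149492-120149791, plus strand: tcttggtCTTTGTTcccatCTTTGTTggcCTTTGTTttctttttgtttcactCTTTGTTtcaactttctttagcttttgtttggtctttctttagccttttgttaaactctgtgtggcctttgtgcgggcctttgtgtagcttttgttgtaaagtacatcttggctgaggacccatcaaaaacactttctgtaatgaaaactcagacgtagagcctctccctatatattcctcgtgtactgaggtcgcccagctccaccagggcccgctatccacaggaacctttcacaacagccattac
Mag, chr7:30914814-30915113, minus strand: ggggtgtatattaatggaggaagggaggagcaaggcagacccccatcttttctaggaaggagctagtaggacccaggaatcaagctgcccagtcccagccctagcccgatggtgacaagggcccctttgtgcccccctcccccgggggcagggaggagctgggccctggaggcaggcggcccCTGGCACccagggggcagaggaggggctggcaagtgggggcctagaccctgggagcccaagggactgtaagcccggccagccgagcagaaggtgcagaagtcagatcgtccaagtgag

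The Myrf letters occurred in 4 of the 8 promoters (Mog, Mag, Cnp and Opalin), against 8.10% of 27025 genes with a promoter in the table. The match began 83 bases before the start in Mog, 68 in Mag and 81 in Cnp, and 36 bases after the start in Opalin. Mag has other annotated starts besides the one shown. From one of them the same letters began 9 bases before the start, and the window of another held no match. The Sox letters occurred in 2 of the 8 (Mobp and Cnp), against 10.6% of those genes. Mobp held 4 Sox matches, between 243 and 198 bases before its start, all on the opposite strand. At least 4, a cutoff equal to Mobp's own count, were found in 2 of 32851 promoters in the table, counting Mobp. Neither set of letters was found in the windows of Mal and Cldn11, the genes that fell the most, or of Ermn, whose difference did not pass. The motifs were chosen with these sequences in view, and a match of letters is a description of the sequence.

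Among the proteins that pack the membrane, Mal encodes a proteolipid of lipid rafts that takes part in the sorting of membrane proteins. It had 1059.8, 1064 and 999.9 CPM in male and 1092, 1207 and 1032 CPM in female 8-week libraries, against 2039 and 2258 CPM in male and 2215 and 2387 CPM in female 4-week libraries. Every 8-week library was thus well below the lowest 4-week library. Its log2 fold change was −1.05 (SE 0.05, edgeR adjusted p = 1.96e-07), and it kept its call under all 22 alternatives tried.

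Cldn11 encodes the claudin of the tight junction strands that run through the sheath. Its levels were 828, 785 and 752 CPM in male and 792, 879 and 736 CPM in female 8-week libraries, against 1434 and 1518 CPM in male and 1462 and 1395 CPM in female 4-week libraries. The ages were far apart and the sexes mixed within each age. The log2 fold change was −0.87 (SE 0.06, edgeR adjusted p = 1.08e-06), and this call too held under all 22 alternatives.

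Mbp encodes myelin basic protein and was the gene with the most counts in each of the 10 libraries. The level was 22424, 22723 and 22309 CPM in male and 22787, 24849 and 21666 CPM in female 8-week libraries, against 33644 and 33418 CPM in male and 34114 and 31123 CPM in female 4-week libraries. Female 8-week library 2 was the highest of its age and still below each 4-week library. The log2 fold change was −0.54 (SE 0.05, edgeR adjusted p = 2.64e-05). Mbp alone took 2.28 ± 0.0897% of a library's counts at 8 weeks (SD, n = 6), against 3.29 ± 0.152% at 4 weeks (SD, n = 4).

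Mobp encodes another small basic protein of compact myelin, and it was the gene with the widest spread among 4-week libraries relative to its mean, with an SD of 16.3%. Libraries had 1339, 1487 and 1366 CPM in male and 1574, 1794 and 1470.0 CPM in female 8-week cords, against 1707 and 2233 CPM in male and 2353 and 2552 CPM in female 4-week cords. Male 4-week library 1 lay below female 8-week library 2, so the ages overlapped in this pair, while the other 5 of 6 8-week libraries were below every 4-week library. The log2 fold change was −0.55 (SE 0.08, edgeR adjusted p = 0.000551).

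Of the immunoglobulin proteins on the membrane surface, Mog lies on the outermost face of the sheath and is a known target of autoantibodies. It had 431, 423 and 379 CPM in male and 439, 475 and 386 CPM in female 8-week libraries, against 702 and 711 CPM in male and 735 and 691 CPM in female 4-week libraries. The 4-week libraries sat close together, and all 8-week libraries were far below them. Its log2 fold change was −0.75 (SE 0.06, edgeR adjusted p = 5.74e-06).

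Mag, a sialic acid binding protein, faces the axon from the innermost membrane. It had 1183, 1254 and 1142 CPM in male and 1255, 1332 and 1178 CPM in female 8-week libraries, against 1619 and 1525 CPM in male and 1675 and 1685 CPM in female 4-week libraries. The ages were apart by a smaller margin than for Mog. The log2 fold change of Mag was −0.41 (SE 0.05, edgeR adjusted p = 0.000191).

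Opalin encodes a sialylated glycoprotein of the oligodendrocyte membrane and had the fewest counts of the 9 genes. The levels were 104, 91.3 and 81.0 CPM in male and 91.2, 99.99 and 82.1 CPM in female 8-week libraries, against 115 and 109.9 CPM in male and 124 and 128 CPM in female 4-week libraries. Male 8-week library 1 came near the lower male 4-week library without reaching it. The log2 fold change was −0.38 (SE 0.08, edgeR adjusted p = 0.00760), and without male 8-week libraries 2 and 3 it was −0.34 with an adjusted p of 0.0644, which did not pass.

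Among the proteins of the cytoplasm, Cnp is a phosphodiesterase known for keeping the cytoplasmic channels of the sheath open. It had 1807, 1771 and 1583 CPM in male and 1775, 1953 and 1587 CPM in female 8-week libraries, against 2519 and 2607 CPM in male and 2798 and 2791 CPM in female 4-week libraries. All 8-week libraries were below all 4-week libraries, with a log2 fold change of −0.62 (SE 0.06, edgeR adjusted p = 3.11e-05). In the gene table Cnp overlaps Dnajc7, and as the strand setting of the counting is not given in the sources used here, reads of the 2 genes could not be fully told apart. Dnajc7 had 1302 to 1687 counts in a library, while Cnp had at least 15257.

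Ermn encodes ermin, a protein that binds actin in the outer loops of the sheath and appears late in its making. It had 407, 392 and 385 CPM in male and 435, 487 and 417 CPM in female 8-week libraries, against 481 and 485 CPM in male and 439 and 482 CPM in female 4-week libraries. Female 8-week library 2 held more than any 4-week library, and the other 5 were below all of them. The log2 fold change was −0.17 (SE 0.06, edgeR adjusted p = 0.132). Without female 8-week library 2 it was −0.21 and passed, at an adjusted p of 0.0478.

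**Figure D2:**
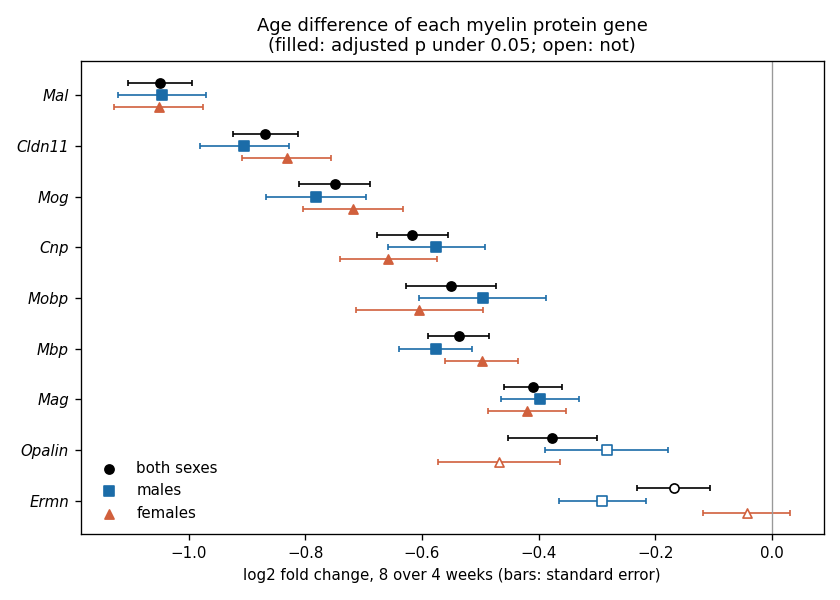
Log2 fold change at 8 over 4 weeks of each of the 9 genes, with bars of 1 SE, over both sexes, within males and within females; filled points had an edgeR adjusted p under 0.05. Over both sexes Mal lies lowest at −1.05 and Ermn, with an open point, highest at −0.17.

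The 9 genes did not fall by the same amount. The log2 ratio of 2 of them within a library does not depend on how libraries are scaled, and it was compared between the ages for all 36 pairs with a two-sided exact permutation test over the 210 ways to allocate the libraries, with Benjamini-Hochberg adjustment over the pairs. The smallest p this design can give is 0.00476, which became 0.00779 after adjustment, and 27 of 36 pairs passed at an adjusted p under 0.05. The pairs share genes and libraries and are not independent of each other. Leaving out each library in turn gave 24 to 28 pairs.

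Mal and Cldn11 each passed in 8 of 8 pairs, and both fell relative to each of the other 7 genes. The log2 ratio of Mbp to Mal was 4.41 ± 0.04 at 8 weeks (SD, n = 6) and 3.90 ± 0.14 at 4 weeks (SD, n = 4), a difference of 0.51 (exact permutation test, adjusted p = 0.00779). Between Mal and Cldn11 themselves, the ratio of Cldn11 to Mal was −0.44 ± 0.05 at 8 weeks and −0.61 ± 0.11 at 4 weeks, so Cldn11 fell less than Mal (adjusted p = 0.00779, exact permutation test, n = 6 and 4). The widest difference was between Mal and Ermn, whose log2 ratio was 1.36 ± 0.05 at 8 weeks and 2.24 ± 0.11 at 4 weeks. The 2 surface proteins differed as well, with a log2 ratio of Mog to Mag of −1.54 ± 0.06 at 8 weeks and −1.20 ± 0.08 at 4 weeks (exact permutation test, adjusted p = 0.00779, n = 6 and 4).

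Among genes close to each other in the order of fall, several ratios did not pass. Mbp against Mobp moved by 0.01 (adjusted p = 0.943), Mobp against Cnp by 0.07 (adjusted p = 0.504), Mbp against Cnp by 0.08 (adjusted p = 0.221) and Mag against Opalin by −0.03 (adjusted p = 0.857), all in the exact permutation test. Mobp passed in 3 of 8 pairs, the fewest. Ermn passed in 7 of 8 pairs and not in that with Opalin, whose log2 ratio to Ermn moved by −0.21 (adjusted p = 0.0673, exact permutation test).

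**Figure D3:**
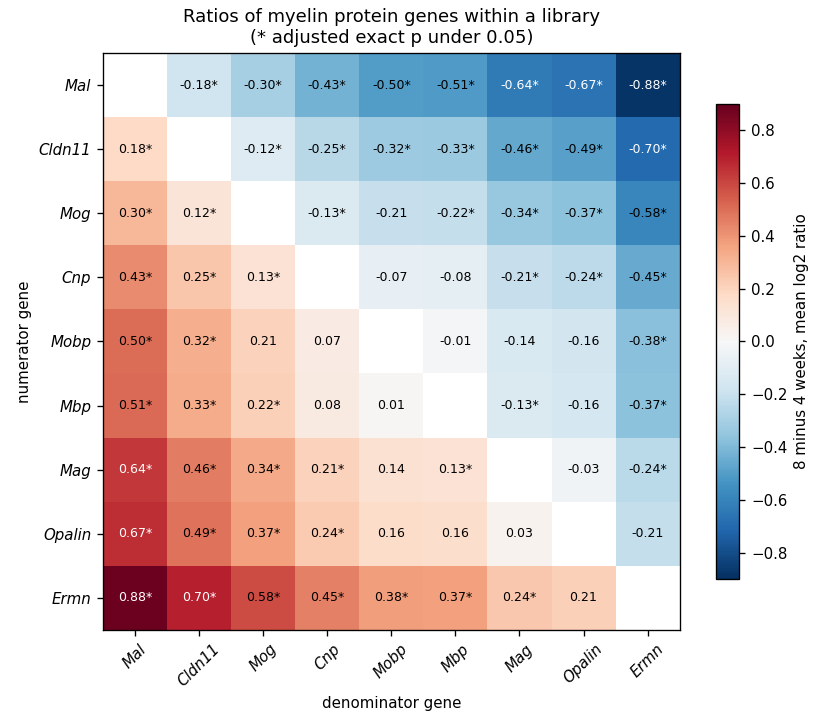
Difference at 8 minus 4 weeks in the mean log2 ratio of the row gene to the column gene within a library, for all pairs of the 9 genes; a star marks an adjusted exact permutation p under 0.05. The rows and columns of Mal and Cldn11 carry a star in every pair, those of Mobp in 3.

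The labels give both sexes, so the age difference was also read within each. Within males 7 of 9 genes were lower at 8 weeks, beside 2.39% of all genes tested, and within females 7 of 9, beside 1.22%. Opalin and Ermn were the 2 that did not pass in either. Every 8-week library lay below every 4-week library for 9 of 9 genes within males, beside 15.2% of all genes, and for 8 of 9 within females, Ermn excepted, beside 16.6%. Opalin was at −0.28 in males (adjusted p = 0.187) and −0.47 in females (adjusted p = 0.0522), and Ermn at −0.29 in males (adjusted p = 0.0586) and −0.04 in females (adjusted p = 0.868), each by edgeR. The difference between the sexes in the age effect was itself tested, and 0 of 9 genes were called by edgeR, DESeq2 or limma-voom, beside 0.0129% of all genes by edgeR. It ran from −0.25 for Ermn (SE 0.11, adjusted p = 0.970) to 0.19 for Opalin, and Ermn was the 1 gene with an unadjusted p under 0.05.

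Some calls within a sex changed when a library was left out, most with a fold change of about the same size. For Mobp in males the log2 fold change was −0.50 (edgeR adjusted p = 0.0294) and became −0.28 (adjusted p = 0.102) without male 4-week library 2. The call also ended without male 8-week library 1, 2 or 3, at −0.46, −0.54 and −0.48 (adjusted p = 0.0931, 0.0616 and 0.0865), and without female 8-week library 1, at −0.50 (adjusted p = 0.0575). In females Mobp was at −0.60 (adjusted p = 0.0179), and the call was lost without 4-week library 1 or 2, at −0.66 and −0.54 (adjusted p = 0.0612 and 0.141), or 8-week library 1 or 3, at −0.59 and −0.54 (adjusted p = 0.107 and 0.0939). Mag in females was at −0.42 and lost its call without the same libraries, at −0.42, −0.41, −0.42 and −0.38 (adjusted p = 0.0609, 0.0678, 0.0660 and 0.0533). In the other direction, Ermn in males was called without female 8-week library 2 (adjusted p = 0.0462), and Opalin in females without male 4-week library 1 or 2 (adjusted p = 0.0273 and 0.0269) or male 8-week library 1 or 3 (adjusted p = 0.0369 and 0.0345).

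Between the sexes, over both ages, 0 of 9 genes were called by edgeR, DESeq2 or limma-voom, beside 0.0901% of all genes by edgeR. The male over female log2 fold changes ran from −0.25 for Mobp (SE 0.08, edgeR adjusted p = 0.450) to 0.00 for Cldn11, and Mobp was the 1 gene with an unadjusted p under 0.05. Mobp averaged 1397 ± 78.6 CPM in males and 1613 ± 165 CPM in females at 8 weeks (SD, n = 3 each), and 1969.7 ± 372 CPM in males and 2452 ± 140.4 CPM in females at 4 weeks (SD, n = 2 each).

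At 8 weeks the genes tended to be high or low in the same libraries. Female 8-week library 2 was the highest 8-week library for 8 of the 9 genes, Opalin excepted, with a median deviation of 0.17 on the log2 scale from the mean of its age. Male 8-week library 3 was the lowest for 6 of the 9, at a median of −0.12. The order was not shared by all, since male 8-week library 1 was the highest for Opalin and the lowest for Mobp. At 4 weeks the libraries were mixed, with median deviations from −0.02 to 0.05, and female 4-week library 2 was the highest for 4 genes and the lowest for 3. These ranks were read for the 9 genes only. How often other genes were highest or lowest in the same libraries was not counted, so the pattern may not be particular to the 9.

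Of 22 other proteins of the myelin membrane and its cytoskeleton, 10 were lower at 8 weeks, 1 was higher and 11 did not pass, with a median log2 fold change of −0.21. Gsn, the actin severing protein gelsolin, fell by 1.08 on the log2 scale (SE 0.06, edgeR adjusted p = 1.96e-07), to 566 ± 39.6 CPM at 8 weeks, against 1197 ± 37.3 CPM at 4 weeks. Tspan2, a tetraspanin, was at 499 ± 22.3 CPM at 8 weeks and 875 ± 71.5 CPM at 4 weeks, and Sirt2, a deacetylase found in myelin, at 322 ± 11.9 CPM at 8 weeks and 479.5 ± 18.4 CPM at 4 weeks. Both were called lower (edgeR adjusted p = 1.73e-06 and 7.30e-06). Septin4, a filament protein, had the highest p of the list, with a log2 fold change of 0.02 (adjusted p = 0.884). The gene that rose was Car2, a carbonic anhydrase, chosen for naming after its values were seen, at 548 ± 36.9 CPM at 8 weeks and 431 ± 48.2 CPM at 4 weeks (log2 fold change 0.35, SE 0.07, edgeR adjusted p = 0.00551).

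Among 18 regulators of myelin genes 3 were lower and 15 did not pass, with a median of −0.10. The 3 were Sox10, a factor required throughout the oligodendrocyte lineage, at 179 ± 9.10 CPM at 8 weeks and 219 ± 19.7 CPM at 4 weeks (log2 fold change −0.29), Olig1, a helix-loop-helix factor of the lineage, at −0.31, and Zfp488, a zinc finger protein of oligodendrocytes, at −0.69, with edgeR adjusted p-values of 0.00314, 0.00482 and 0.0128. Sox6 had the highest p, with −0.02 (adjusted p = 0.959). Myrf, whose letters are marked in the promoters above, was at −0.09 (adjusted p = 0.591) and is named here for that reason.

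Of 8 genes that serve the transport or splicing of Mbp RNA 1 was lower and 7 did not pass, with a median of −0.03. Fyn, a kinase that releases Mbp RNA for translation, was at 159 ± 4.01 CPM at 8 weeks and 204 ± 9.42 CPM at 4 weeks (log2 fold change −0.36, edgeR adjusted p = 0.000411). Kif1b, a kinesin, was at 0.22 (adjusted p = 0.0670), Hnrnpa2b1, a protein that binds the transport signal of Mbp RNA, at −0.12 (adjusted p = 0.272), and Hnrnpf had the highest p (adjusted p = 0.995).

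Markers of other cell types were read in the same libraries. Of 7 markers of newly forming oligodendrocytes 4 were lower and 1 was higher, with a median log2 fold change of −0.38. The one that rose was Bcas1, the most abundant, at 963 ± 37.4 CPM at 8 weeks and 834 ± 34.3 CPM at 4 weeks (edgeR adjusted p = 0.0162). Of 7 markers of oligodendrocyte precursors, led by Ptprz1, 1 was lower and the median was −0.14. Of 9 neuron markers, led by Snap25, 0 were lower and 1 was higher, with a median of 0.08 and summed levels of 8472 to 8972 CPM at 8 weeks and 7644 to 8532 CPM at 4 weeks. Of 8 astrocyte markers, led by Gfap, 1 was lower, with a median of −0.01 and sums of 6469 to 7936 CPM at 8 weeks and 6869 to 7623 CPM at 4 weeks, and of 7 microglia markers 0 were called and the median was −0.10. The summed level of the 9 myelin genes, by comparison, was 28555 to 33076 CPM at 8 weeks and 43234 to 45914 CPM at 4 weeks, with no overlap.

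Schwann cells, which make the myelin of peripheral nerve roots, also use Mbp, Mag, Mal and Cnp. Of 9 of their markers 1 was lower at 8 weeks, with a median log2 fold change of −0.20, and their summed level was 407 to 1316 CPM at 8 weeks and 639 to 1390 CPM at 4 weeks, so the ages overlapped. The 4 highest sums were those of male 4-week libraries 1 and 2, at 1390 and 1018 CPM, and male 8-week libraries 1 and 3, at 1228 and 1316 CPM. Male 8-week library 3, with the highest sum of its age, was the lowest 8-week library for 6 of the 9 myelin genes. Male 8-week library 1, with the next highest, was the lowest for Mobp only and the highest for Opalin. How often other genes were lowest in these libraries was not counted, and the part of Schwann cell RNA in the levels of the 9 genes was not tested.

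All 12 skeletal muscle genes were lower at 8 weeks, as were 7 of 7 fat cell genes tested, 8 of 8 neutrophil and marrow genes, 6 of 7 bone and cartilage genes and 5 of 5 adrenal cortex genes tested, while 1 of 6 lung genes was higher. The most abundant genes of these lists were, in that order, Acta1, Fabp4, S100a9, Acan, Star and Sftpc. The adrenal cortex sums were high only in the male 4-week libraries, at 123 and 92.1 CPM. In female 4-week libraries they were 10.1 and 9.60 CPM, within the 8-week range of 8.99 to 11.03 CPM. The lung sums were high only in male 8-week libraries 2 and 3, at 815 and 92.1 CPM. The median log2 fold change was −3.19 for muscle, −3.70 for fat, −1.10 for neutrophils and marrow and −2.97 for bone and cartilage. Fat genes summed to 2.81 to 45.8 CPM at 8 weeks and 32.2 to 284 CPM at 4 weeks, neutrophil and marrow genes to 115 to 199 CPM at 8 weeks and 205 to 572 CPM at 4 weeks, and bone and cartilage genes to 29.3 to 49.2 CPM at 8 weeks and 48.7 to 93.3 CPM at 4 weeks. The sums of muscle and of neutrophil and marrow genes were lower at 8 weeks with no overlap, as the myelin sum was. Those of fat and of bone and cartilage genes overlapped between the ages. With the genes of all 6 lists and the 9 myelin genes left out of the scaling, the count of myelin genes called lower was again 8. Apart from that scaling, the muscle score and the libraries left out above, the part of the genes of these lists in the results was not tested.

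**Figure D4:**
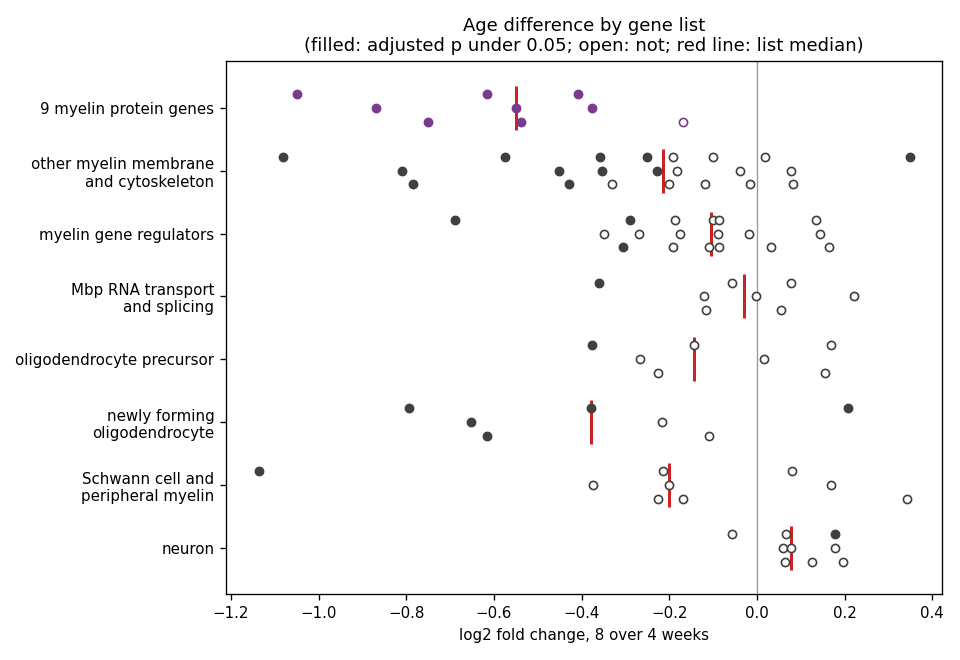
Log2 fold change at 8 over 4 weeks of every tested gene of the 9 myelin genes (purple), the 3 pathway lists and the lists of oligodendrocyte precursors, newly forming oligodendrocytes, Schwann cells and neurons, with filled points for an edgeR adjusted p under 0.05 and a red line at each list's median. The 9 myelin genes have a median of −0.55, the lowest of the 8 lists drawn, that of the regulators is −0.10 and that of the neuron markers 0.08.

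Genes whose centred log2 CPM over the 10 libraries lay closest to that of each myelin gene were found among 13946 other genes by the root mean square difference. The closest were Agpat4, an acyltransferase, to Mag at 0.0366, Enpp2, the phospholipase autotaxin, to Ermn at 0.0463, Pllp, the proteolipid plasmolipin, to Opalin at 0.0469, and Gramd3 to Mbp at 0.0526, followed for Mbp by Cers2, a ceramide synthase, at 0.0529. For Cnp it was Sirt2 at 0.0592, and for Cldn11 it was Srd5a1, a steroid reductase, at 0.0644, which was also the second for Mal at 0.0999, after Gsn at 0.0922. Mog had Marcksl1 at 0.0881, and Mobp had Gas7 at 0.0938. Among the 9 genes themselves Mog and Cldn11 were the closest pair, at 0.07, and Mal and Ermn the farthest apart, at 0.44. Likeness here rests largely on the size of the age difference, and all profiles come from the same libraries.

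Other genes of this ranking were Grb14 for Mbp, Tspan2 for Mog, Ehd1 and Tmem117 for Mag, Zdhhc9 and Fa2h for Mobp, Tspan15 and Fa2h for Cnp, Rab7b and Tspan2 for Cldn11, Rnf122 for Mal, Tmem125 and Nras for Opalin, and Gpm6b and Tnks2 for Ermn. Fa2h makes the hydroxylated fatty acids of myelin lipids and was near both Mobp and Cnp.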

How the data were processed

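RNA of mouse spinal cord was sequenced in 10 libraries, grouped by the age and sex in the labels. Each library has 1 file of whole-number counts of reads for each gene, as the authors deposited them, without normalization, made with TopHat2 2.1.0, featureCounts and build mm9 per the submitters' processing notes. No strand setting, option or annotation version is given in the sources used here. Of 26301 identifiers 24191 had a symbol in the RefSeq table of GRCm38.p6, used for names, overlaps and promoters.

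Tests used edgeR 4.0.16 (R 4.3.3) on the counts: TMM scaling, filterByExpr (minimum count 10, minimum total 15), which kept 15540 genes, and a two-sided quasi-likelihood test, adjusted by Benjamini and Hochberg's method. The additive model (7 residual degrees of freedom) gave age and sex, and a model of the 4 groups with 6 gave the interaction and the age differences by sex. The SE is the absolute log2 fold change over the square root of F. Promoter matches and profile likeness (genes with a mean of at least 1 log2 CPM) are descriptions. Ratios had 0.5 added to each count. The fitting was tested on simulated data. Replicates differed beyond sampling noise in every pair (chi-square over degrees of freedom from 1.98 to 11.9), and each counts as 1 sample.

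The 9 genes, the lists, the motifs and the alternatives were chosen with earlier results of these data known. Named genes are the 9, the 3 lowest p-values and the highest p-value of each pathway list, the most abundant gene of each cell type list and the 3 nearest profiles of each of the 9; Car2, Myrf and the overlapping Dnajc7 are named besides, and some genes this rule picks are not reported here. DESeq2 1.42.0, limma 3.58.1 (voom), other scalings and filters, a replicate block, a muscle score, which averages the centred log2 CPM of the 12 muscle genes, and leaving out libraries were the alternatives.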

Additional observations from a re-analysis of the deposited data

Results flagged for a closer look

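In 18 groups of 4 or 6 libraries, the 9 genes at each age, the highest or lowest library was set against the others, and 2 stood apart. Chance alone flags about 1 in 20 groups. Mbp had 24849 CPM in female 8-week library 2, the highest of 6, and the gap to the next library took 0.648 of the range of its age. Ermn had 439 CPM in female 4-week library 1, the lowest of 4, with a gap of 0.911 of the range.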

How the results depend on the processing

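Of 555 values of single genes under the alternatives, 519 kept their direction and their side of the threshold. With the skeletal muscle score in the model 2 of the 9 genes were called lower in place of 8, all genes called numbered 42 in place of 1028, and Ermn turned to 0.00873. The other log2 fold changes then were −0.38 for Mbp, −0.49 for Mog, −0.18 for Mag, −0.63 for Mobp, −0.39 for Cnp and −0.06 for Opalin; this adds a term that moves with age, and the cause was not tested. All genes called numbered 474 without male 8-week libraries 2 and 3 and 393 without both male 4-week libraries, fits with fewer samples. Leaving out each library in turn gave 8 to 9 of the 9 genes lower over both sexes, 6 to 8 in males, 5 to 8 in females, and 719 to 1473 genes called in all. Ermn in females ran from −0.11 to 0.0316 over these, turning to 0.0316 without female 4-week library 2 and to 0.00235 without female 8-week library 3; the cause was not tested. Upper-quartile scaling, no filter and DESeq2 also called Ermn in males, and the filter of 1 CPM in 4 libraries, no filter and DESeq2 called Opalin in females.

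Deviations of same-numbered libraries had correlations of −0.213 to 0.122 between the ages, 0.211 between the sexes at 4 weeks and −0.0565 to 0.236 between the sexes at 8 weeks, where not every library correlated best with its own number. As they were not all above 0.1, the numbers were not taken to pair the samples. With a replicate block 8 of the 9 genes were called lower over both sexes, 7 in males and 8 in females (Opalin added, adjusted p = 0.0458 by edgeR), and all genes called numbered 808. For the ratios the replicate block left 36 allocations, the smallest two-sided p they allow is 0.0556, since each allocation has a mirror image, and 0 of 36 pairs passed, so this fit says nothing of stability. With counts of at least 789 for every gene in every library, the number of libraries limits the precision more than depth.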

Other observations

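Of the 2199 genes with a mean of at least 100 CPM over all libraries, 129 (5.87%) were called lower at 8 weeks. In their order from the most lowered, Mal was at place 5, Cldn11 at 7, Mog at 12, Cnp at 17 and Mobp at 25. Mbp was at 27, Mag at 53, Opalin at 61 and Ermn at 209. Opalin met that mean with 119 CPM at 4 weeks and 91.6 CPM at 8 weeks. Among all 15540 genes tested, Mal was at place 298, Cldn11 at 384, Mog at 463, Cnp at 603 and Mobp at 689. There Mbp was at 712, Mag at 1019, Opalin at 1124 and Ermn at 2856. The makeup of the myelin reads was read as well and was not tested. Mbp held 75.8 ± 0.625% of the counts of the 9 genes at 8 weeks (SD, n = 6) and 74.2 ± 1.66% at 4 weeks (SD, n = 4), ranges that overlapped. Mal held 3.58 ± 0.0708% at 8 weeks and 4.997 ± 0.391% at 4 weeks, ranges that did not overlap. These shares are of counts and follow transcript length as well as the number of transcripts.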
